A study of Mus musculus with 10 samples.

Results

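Amacrine cells are the inhibitory interneurons of the inner retina, and the genes that give them their transmitters and their identity were followed here in the rd10 mouse. The set held 9 genes, chosen by name: Gad1, Gad2, Slc32a1, Slc6a9, Pax6, Tfap2a, Tfap2b, Chat and Th. Of these, 8 were among the 11702 genes of the gene table, and Th was read from the transcript counts. The rd10 retina loses its rods because of a mutation in Pde6b, a subunit of the rod phosphodiesterase. Bulk RNA of retinas from 10 female mice was compared: 4 WT mice given DMSO (W1 to W4), 3 B6.CXB1-Pde6b rd10/J mice given DMSO (D1 to D3) and 3 such mice given halofantrine (H1 to H3), an antimalarial drug. Each injection was 1 μL into the vitreous, with 20 μM halofantrine or DMSO alone, at P10 and P24, and retinas were collected at P36, so every mouse had been injected. By the labels, 3 of the rd10 libraries (D3, H2 and H3) belong to batch 2, and the other rd10 libraries and all WT libraries to batch 1. Sample titles also carry set names, and no WT library shares a set with an rd10 library, so set and genotype cannot be told apart. W4 is also apart from W1 to W3, and in batch 2 D3 is apart from H2 and H3, so set and treatment cannot be told apart there. No WT mouse is in batch 2, and no source used here states the strain of the WT mice.

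Most amacrine cells release GABA or glycine. GABA is made by the 2 glutamate decarboxylases encoded by Gad1 and Gad2, and glycine is taken up by the transporter encoded by Slc6a9. Slc32a1 encodes the transporter that loads either transmitter into vesicles. Chat makes acetylcholine in the starburst cells that serve direction selectivity, and Th makes the precursor of dopamine in a sparse class of wide-field cells. Pax6, Tfap2a and Tfap2b encode transcription factors: Pax6 is kept by amacrine, horizontal and ganglion cells, and the AP-2 factors Tfap2a and Tfap2b by amacrine and horizontal cells. Several of the genes are thus used by more than amacrine cells, and in bulk RNA fewer cells and less RNA per cell cannot be told apart.

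The libraries held 15512212 to 38160436 counts on genes, with D3 the shallowest. Levels are given as CPM (edgeR's depth-normalised counts, after TMM scaling over the 10 libraries). Pde6b, which checks the labels, had 2699, 2850 and 2855 CPM in the first 3 WT libraries and 93.1 CPM in W4, less than its level in each of the 6 rd10 libraries. The 14 rod genes took 7.05% to 7.31% of gene counts in W1 to W3, 0.328% in the library labelled W4 and 0.414% to 1.24% in the rd10 libraries. The fits of the 8 genes against WT are therefore given with and without W4, and other comparisons with WT name the WT libraries used. Labels mark each library as a mouse of its own, and p-values measure the spread between these mice.

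The sequence in front of the start site is shown for the GABA-synthesis pair and for the genes at the top and the bottom of the level order, since these genes are followed in detail here. The stretches come from the RefSeq promoter windows of build GRCm38.p6 (250 bases before the start), read 5′ to 3′ on the gene's strand and ended before any annotated exon of the gene that lies in the window. Capitals mark matches, on either strand, to 3 motifs: GCCNNNGGC (bound by AP-2 factors), TGACGTCA (the cyclic AMP response element) and TATAAA (the TATA box). They lie at chr2:70561879-70562041 (Gad1, plus strand), chr2:22622077-22622204 (Gad2, plus strand), chr2:105668646-105668895 (Pax6, plus strand) and chr7:142900015-142900245 (Th, minus strand).
Gad1: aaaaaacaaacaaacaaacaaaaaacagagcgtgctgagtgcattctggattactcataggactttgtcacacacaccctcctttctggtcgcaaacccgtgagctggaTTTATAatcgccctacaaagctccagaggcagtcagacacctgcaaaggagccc
Gad2: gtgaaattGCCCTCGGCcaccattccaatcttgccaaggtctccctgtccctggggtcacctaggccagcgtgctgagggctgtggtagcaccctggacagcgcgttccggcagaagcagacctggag
Pax6: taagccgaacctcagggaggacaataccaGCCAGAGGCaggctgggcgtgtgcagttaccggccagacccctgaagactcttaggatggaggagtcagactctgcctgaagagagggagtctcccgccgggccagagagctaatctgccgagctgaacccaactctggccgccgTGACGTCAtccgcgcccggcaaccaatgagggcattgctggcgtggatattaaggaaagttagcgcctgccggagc
Th: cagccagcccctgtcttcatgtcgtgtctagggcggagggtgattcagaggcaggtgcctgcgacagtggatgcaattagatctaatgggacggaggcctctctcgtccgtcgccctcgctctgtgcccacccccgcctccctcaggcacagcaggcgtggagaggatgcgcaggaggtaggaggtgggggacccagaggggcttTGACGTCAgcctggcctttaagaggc
Gad1 held a TATAAA match read on the other strand, Gad2 and Pax6 held GCCNNNGGC, and Pax6 and Th held TGACGTCA, with no 2 matches overlapping. Gad2 had 2 matches to GCCNNNGGC in its window, 1 of them outside the printed stretch. Over the 13 windows of the 9 genes, GCCNNNGGC was found in 2, TGACGTCA in 2 and TATAAA in 1. Among all 32851 windows of that length, 13.7% held GCCNNNGGC, 1.55% held TGACGTCA and 12.4% held TATAAA.

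Per kilobase of transcript, Pax6 had the highest level and Th the lowest. In W1 to W3 the levels were 153 ± 2.45 CPM per kb (SD, n = 3) for Pax6, 88.1 ± 1.86 for Gad1 and 75.9 ± 1.60 for Slc6a9. Tfap2b was at 27.4 ± 2.20 and Slc32a1 at 22.8 ± 1.87 CPM per kb. Gad2, Tfap2a and Chat followed at 9.49 ± 0.508, 8.22 ± 0.227 and 6.37 ± 0.202, and Th was at 1.40 ± 0.476. In the rd10 DMSO libraries the order was the same but for Tfap2a and Gad2, which changed places at 15.2 ± 3.42 and 15.2 ± 0.879 CPM per kb, a difference inside their spread. Gad1 (135 ± 4.01) and Slc6a9 (127 ± 17.7) also lay within their spread of each other there. The 2 decarboxylases differed widely in level per kilobase, with Gad1 above Gad2 in both groups.

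The first question was whether the amacrine genes differ between the degenerating and the WT retina. In the fit with all 4 WT libraries none of the 8 genes passed an adjusted p of 0.05 by edgeR's quasi-likelihood test, and 0% of the 11698 genes tested did. All 8 log2 fold changes were above 0, from 0.31 to 0.64 with a median of 0.46, against a median of -0.02 over all genes. At an unadjusted p under 0.05 there were 3 of the 8 genes (Tfap2a, Gad2 and Tfap2b) and 3108 of all genes. DESeq2 called 589 genes (5.04%) and none of the 8.

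Without W4, 7 of the 8 genes were higher in rd10 DMSO than in WT, by 0.63 to 0.91 on the log2 scale. The share called higher among all 11696 genes tested was 32.3% in that fit, so such a call was common among genes of any kind. The median of the 8 genes was 0.69, against -0.01 over all genes. All 3 rd10 DMSO libraries lay above W1 to W3 for 7 of the 8 genes, and this was so for 33.6% of all genes. The exception in both counts was Slc32a1.

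**Figure D1:**
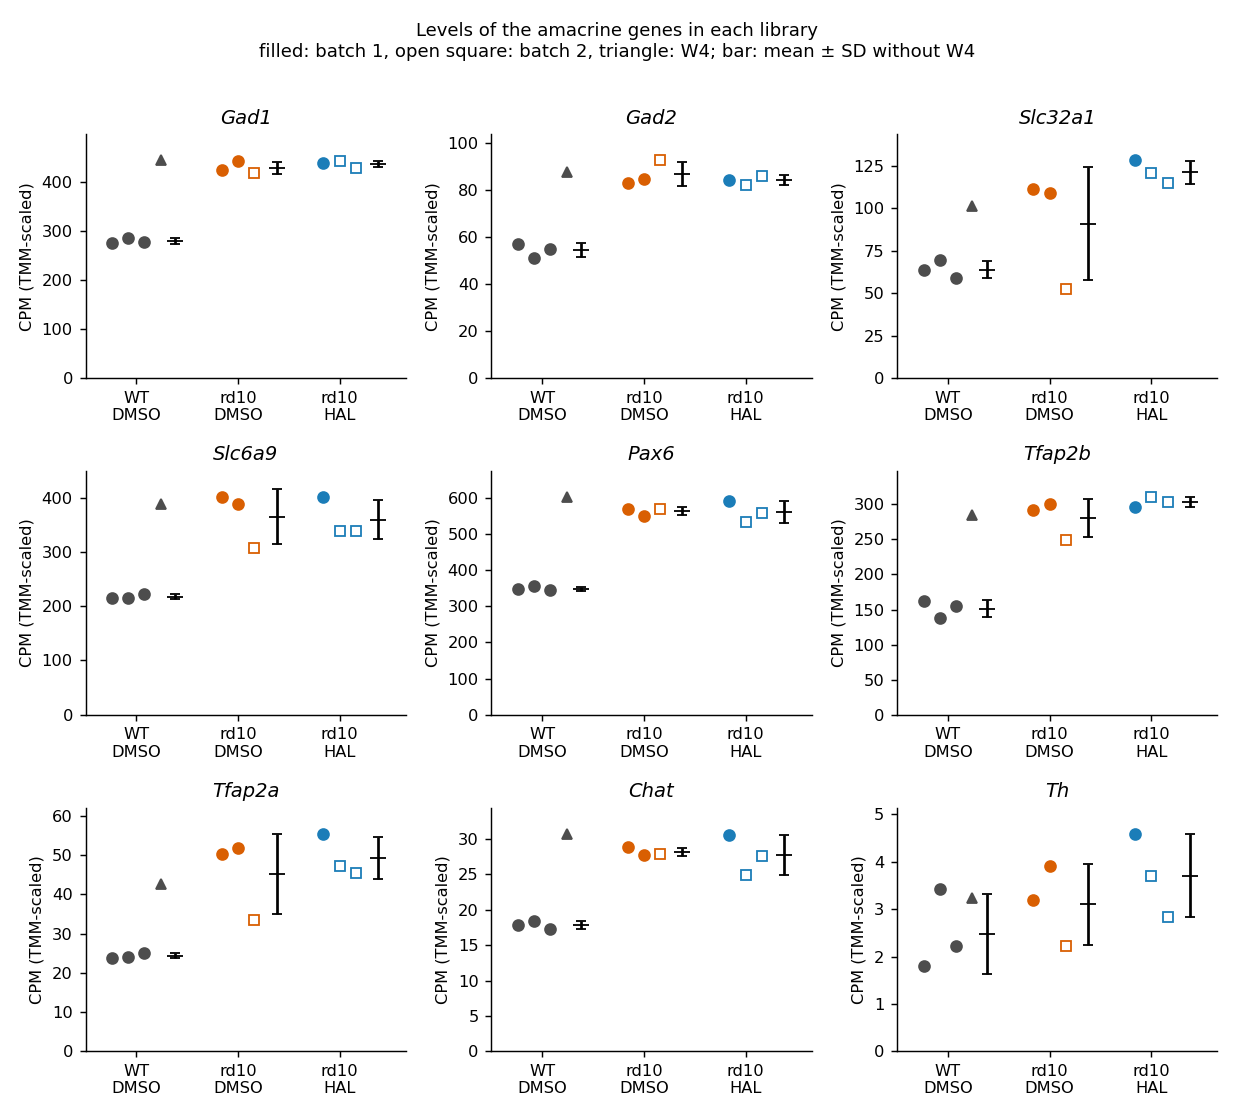
Level of each gene (y axis, CPM after TMM scaling) in each library of the 3 groups (x axis), with the mean ± SD of each group beside it, W4 left out of the WT mean. W4 lies above W1 to W3 for all 8 genes of the gene table, and D3 sits at 52.5 CPM of Slc32a1, under the other rd10 libraries.

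Gad1 (ENSMUSG00000070880) measured 276, 287 and 277 CPM in W1 to W3, 424, 443 and 419 CPM in D1 to D3 and 438, 442 and 429 CPM in H1 to H3. W4 was at 444 CPM, above all rd10 libraries. The 3 groups without W4 were tight, and the rd10 values of the DMSO group were 1.53 times those of W1 to W3. The log2 fold change of rd10 DMSO against WT was 0.42 (SE 0.19, adjusted p = 0.189) with W4 and 0.63 (SE 0.06, adjusted p = 1.03e-04) without it.

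Gad2 (ENSMUSG00000026787), the second decarboxylase, measured 56.9, 51.2 and 55.1 CPM in W1 to W3, 83.2, 84.9 and 92.7 CPM in D1 to D3 and 84.3, 82.0 and 86.2 CPM in H1 to H3. W4 was at 87.9 CPM. No rd10 library overlapped W1 to W3, and D3 was the highest library for this gene. The log2 fold change was 0.47 (SE 0.19, adjusted p = 0.187) with W4 and 0.69 (SE 0.07, adjusted p = 1.52e-04) without it.

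Slc32a1 (ENSMUSG00000037771), the vesicular transporter, measured 63.5, 69.3 and 58.8 CPM in W1 to W3, 111, 109 and 52.5 CPM in D1 to D3 and 128, 121 and 115 CPM in H1 to H3. W4 was at 101 CPM. D1 and D2 lay above W1 to W3, and D3 lay below all of them. Against WT the log2 difference was 0.31 (SE 0.30, adjusted p = 0.447) with W4 and 0.52 (SE 0.26, adjusted p = 0.114) without it. With the batch 1 libraries alone and W4 left out, which also leaves out D3, it was 0.79 (SE 0.07, adjusted p = 1.85e-05). With an offset for GC content it was 0.19 with W4 and 0.33 (SE 0.13, adjusted p = 0.0506) without it.

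Slc6a9 (ENSMUSG00000028542), the glycine transporter, measured 215, 214 and 222 CPM in W1 to W3, 400, 387 and 307 CPM in D1 to D3 and 401, 339 and 338 CPM in H1 to H3. W4 was at 388 CPM. The 3 batch 2 libraries held the 3 lowest rd10 values. Its fitted log2 fold change was 0.49 (SE 0.24, adjusted p = 0.2) with W4 and 0.76 (SE 0.10, adjusted p = 5.07e-04) without it.

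Pax6 (ENSMUSG00000027168) measured 347, 355 and 344 CPM in W1 to W3, 567, 549 and 570 CPM in D1 to D3 and 591, 532 and 557 CPM in H1 to H3. W4 was at 601 CPM, the highest of the 10. The halofantrine libraries spread around the DMSO ones. rd10 DMSO differed from WT by a log2 fold change of 0.45 (SE 0.22, adjusted p = 0.197) with W4 and 0.70 (SE 0.06, adjusted p = 6.61e-05) without it.

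Tfap2b (ENSMUSG00000025927) measured 161, 138 and 155 CPM in W1 to W3, 291, 300.1 and 249 CPM in D1 to D3 and 296, 310.2 and 304 CPM in H1 to H3. W4 was at 285 CPM. D3 was the lowest rd10 library, still well above W1 to W3. The log2 fold change was 0.60 (SE 0.25, adjusted p = 0.188) with W4 and 0.90 (SE 0.09, adjusted p = 1.54e-04) without it.

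Tfap2a (ENSMUSG00000021359) measured 23.9, 24.1 and 25.1 CPM in W1 to W3, 50.3, 51.9 and 33.5 CPM in D1 to D3 and 55.4, 47.1 and 45.3 CPM in H1 to H3. W4 was at 42.7 CPM. D3 lay under the other rd10 libraries here as well. Against WT the log2 difference was 0.64 (SE 0.25, adjusted p = 0.187) with W4 and 0.91 (SE 0.16, adjusted p = 0.00186) without it, the highest of the 8 in both fits.

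Chat (ENSMUSG00000021919) measured 17.8, 18.4 and 17.3 CPM in W1 to W3, 28.8, 27.7 and 27.9 CPM in D1 to D3 and 30.6, 24.9 and 27.6 CPM in H1 to H3. W4 was at 30.7 CPM. The groups without W4 did not overlap between rd10 and WT. Its fitted log2 fold change was 0.42 (SE 0.21, adjusted p = 0.209) with W4 and 0.67 (SE 0.07, adjusted p = 1.56e-04) without it.

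Th (ENSMUSG00000000214) rested on 38, 68 and 38 counts in W1 to W3, 87 in W4, 78, 156 and 36 in D1 to D3 and 124, 127 and 95 in H1 to H3. Scaled by the same factors, these were 1.80, 3.43 and 2.22 CPM in W1 to W3, 3.23 CPM in W4, 3.20, 3.91 and 2.21 CPM in D1 to D3 and 4.59, 3.69 and 2.84 CPM in H1 to H3. The groups overlapped. By an exact two-sided permutation test p was 0.571 for rd10 DMSO against WT, 0.5 without W4 and 0.5 for halofantrine against DMSO, where 3 against 3 cannot go below 0.1. With these numbers of libraries the test could not have passed 0.05 for any difference.

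Scaling decides how these differences read. Library size alone in place of TMM raised the median log2 fold change of all genes in rd10 DMSO against WT to 0.14. When libraries were scaled to the bipolar, horizontal and ganglion cell genes, a choice made after seeing the data, the median of the 8 genes without W4 went from 0.69 to 0.05, and 1 of them, Tfap2b, remained called (0.25, SE 0.09, adjusted p = 0.0369). The share called higher over all genes was then 6.05% and the share called lower 70.8%, and the median over all genes was -0.65. Gad1 and Slc32a1, the lowest of the 8 under TMM, turned to -0.02 and -0.15 in that scaling, and the other 6 stayed above 0. A change of scaling moves all genes by about the same amount. The distance of the members' median from that of all genes is therefore kept by construction and is no result.

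Other cell types moved in the same fit without W4 and TMM scaling. In that fit 32.3% of all genes were called higher and 29.9% lower. The bipolar list had a median log2 fold change of 0.96 with 13 of 16 genes higher, the Müller glia list 0.76 with 12 of 12, the ganglion list 0.47 with 12 of 13 and the horizontal list 0.27 with 4 of 7. All 14 rod genes were lower, with a median of -3.12, and their summed level fell from between 77928 and 82276 CPM in W1 to W3 to between 4188 and 11817 CPM in D1 to D3. All 12 gliosis genes and all 7 measured microglia genes were higher, with medians of 2.74 and 2.28. With W4 no gene of these lists passed, and the medians were 0.63 for bipolar, 0.47 for Müller glia, 0.29 for ganglion, 0.23 for horizontal, -2.74 for rod, 1.63 for gliosis and 1.32 for microglia genes. The part of these cell types in the values of the amacrine genes was not tested beyond the scaling given above.

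**Figure D2:**
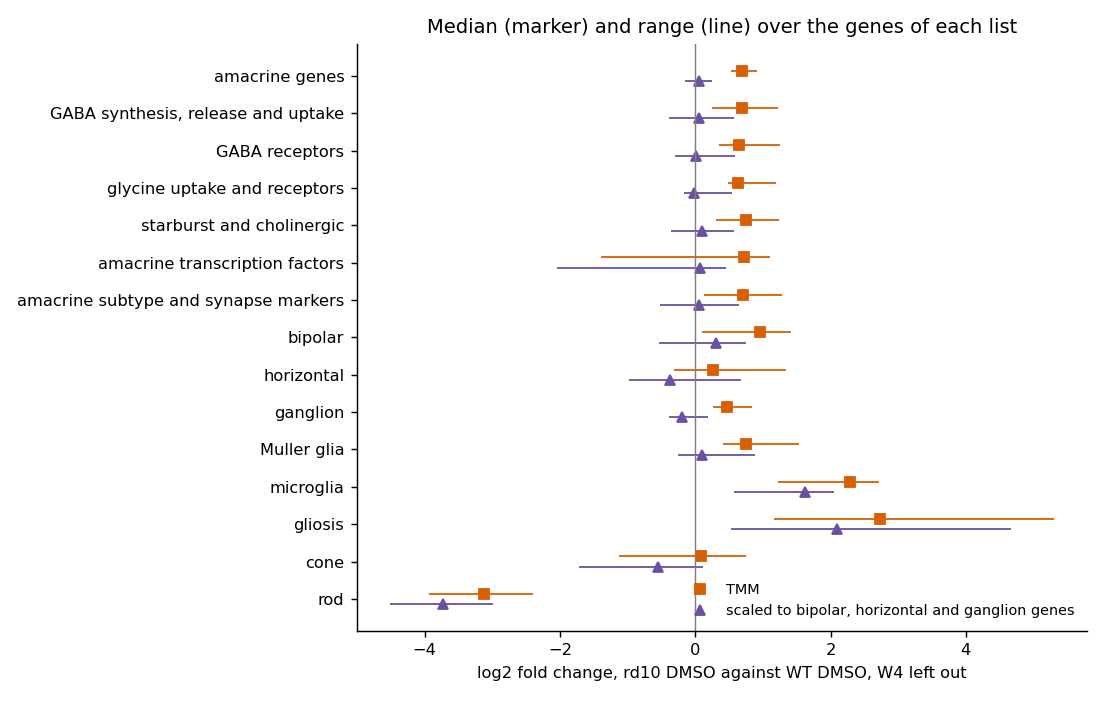
Median log2 fold change (marker) and range over genes (line) of each gene list in rd10 DMSO against WT DMSO, W4 left out, under TMM and under scaling to bipolar, horizontal and ganglion genes. The amacrine genes have a median of 0.69 under the first and 0.05 under the second, between the bipolar (0.96 and 0.31) and the ganglion lists (0.47 and -0.19). The bipolar, horizontal and ganglion lists set the second scale, so their own values under it are partly fixed.

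The wider amacrine lists were read in the same way, where 32.3% of all genes were called higher without W4, and 6.05% were higher and 70.8% lower under the scaling to other inner neurons. Without W4, 7 of 9 genes of GABA synthesis, release and uptake were higher (this list shares Gad1, Gad2 and Slc32a1 with the set), as were 16 of 16 GABA receptor genes with a median of 0.65, and 6 of 6 genes of glycine uptake and its receptors with a median of 0.64. None of them passed with W4. In the inner-neuron scaling 1 gene of each of these 3 lists was higher and 1 gene of each of the first 2 lower, against 6.05% and 70.8% of all genes, and the medians were 0.05, 0.01 and -0.01. Slc6a11, a GABA transporter, had the smallest p among the genes of the first list outside the set, with a log2 fold change of 0.60 with W4 and 0.93 without it. Slc6a5, the neuronal glycine transporter, measured 36.8, 34.6 and 34.4 CPM in W1 to W3 and 59.7, 65.6 and 65.2 CPM in D1 to D3, a log2 fold change of 0.64 with W4 and 0.86 without it. Gabrr2, a subunit of the GABA-C receptor that sits on bipolar terminals, gave 0.57 with W4 and 0.77 without it.

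Among starburst and cholinergic genes, 15 of 17 were higher without W4, against 32.3% of all genes, with a median of 0.75, Chat included. In the inner-neuron scaling 4 of the 17 were higher and 1 lower, against 6.05% and 70.8% of all genes. Isl1 of this list is also among the bipolar genes used for that scaling. Ache, the enzyme that breaks down acetylcholine, gave 0.45 with W4 and 0.61 without it, and Chrm2, a muscarinic receptor, 0.53 and 0.76. Of 8 measured dopaminergic genes 5 were higher and 1, Drd4 (-1.26 with W4 and -1.61 without it), lower without W4, and their summed level overlapped between the groups, at 345 to 380.2 CPM in W1 to W3 and 374 to 386 CPM in D1 to D3. In the inner-neuron scaling none of them was higher and 4 were lower, against 70.8% of all genes. Drd1, a dopamine receptor, gave 0.42 with W4 and 0.59 without it. Of the 12 listed peptide and nitric oxide genes 4 could be tested, and 1 of them, Nos1, was higher without W4 (0.71, adjusted p = 0.00643, edgeR, and 0.42 with W4). Of 19 measured amacrine transcription factors, which include Pax6, Tfap2a and Tfap2b, 17 were higher and 2 lower without W4, against 32.3% and 29.9% of all genes, and 4 were higher and 3 lower in the inner-neuron scaling (6.05% and 70.8% of all genes). Neurod4 gave 0.64 with W4 and 0.91 without it. The 2 lower ones were Neurod1, which photoreceptors also use, at -1.13 with W4 and -1.40 without it, and Meis1 at -0.23 and -0.28. Drd4 and Meis1 are named here after their values were seen. Of 24 subtype and synapse markers, 23 were higher with a median of 0.71, and 3 were higher and 4 lower in the inner-neuron scaling (6.05% and 70.8% of all genes). Calb1 of this list is also among the horizontal genes used for that scaling. Slc17a8, the vesicular glutamate transporter of one amacrine class, gave 0.54 with W4 and 0.75 without it under TMM.

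The second question was whether halofantrine changed these genes in the rd10 retina. None of the 8 genes passed in the fit of 3 halofantrine against 3 DMSO libraries, and none did so under any alternative tried. Of the 11692 genes tested 0% passed, with 557 genes at an unadjusted p under 0.05 and none of the 8 among them. DESeq2 called 3 genes, none of the 8. The median log2 fold change of the 8 was 0.01, and for 7 of them it lay between -0.05 and 0.12. Gad1 gave 0.02 (SE 0.05), Gad2 -0.05 (SE 0.06) and Pax6 -0.01 (SE 0.06). Chat gave -0.02 (SE 0.09), Slc6a9 -0.02 (SE 0.12), Tfap2a 0.12 (SE 0.17) and Tfap2b 0.11 (SE 0.08).

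Slc32a1 had the highest value of the 8, 0.41 (SE 0.26, adjusted p = 0.883, edgeR). Its halofantrine and DMSO libraries did not overlap, which for 1 gene of 8 is near the 13.1% of all genes. The value of 0.41 rests on D3. With an offset for GC content it was 0.18 (SE 0.14). Without D3 the log2 fold change was 0.14 (SE 0.06, adjusted p = 0.683), and with batch as a term it was 0.67 (SE 0.19, adjusted p = 0.269). Within batch 1 the halofantrine library was 0.22 above the mean of D1 and D2 on the log2 scale, and within batch 2 the mean of H2 and H3 was 1.16 above D3. Tfap2a followed with 0.12 in batch 1 and 0.46 in batch 2. Its fitted value was 0.28 with batch as a term (SE 0.09, adjusted p = 0.269) and -0.05 without D3. Tfap2b gave 0.00 in batch 1 and 0.30 in batch 2, 0.15 with batch as a term and 0.04 without D3. For Gad1, Gad2, Slc6a9, Pax6 and Chat the differences lay between 0.00 and 0.11 in batch 1 and between -0.14 and 0.14 in batch 2.

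**Figure D3:**
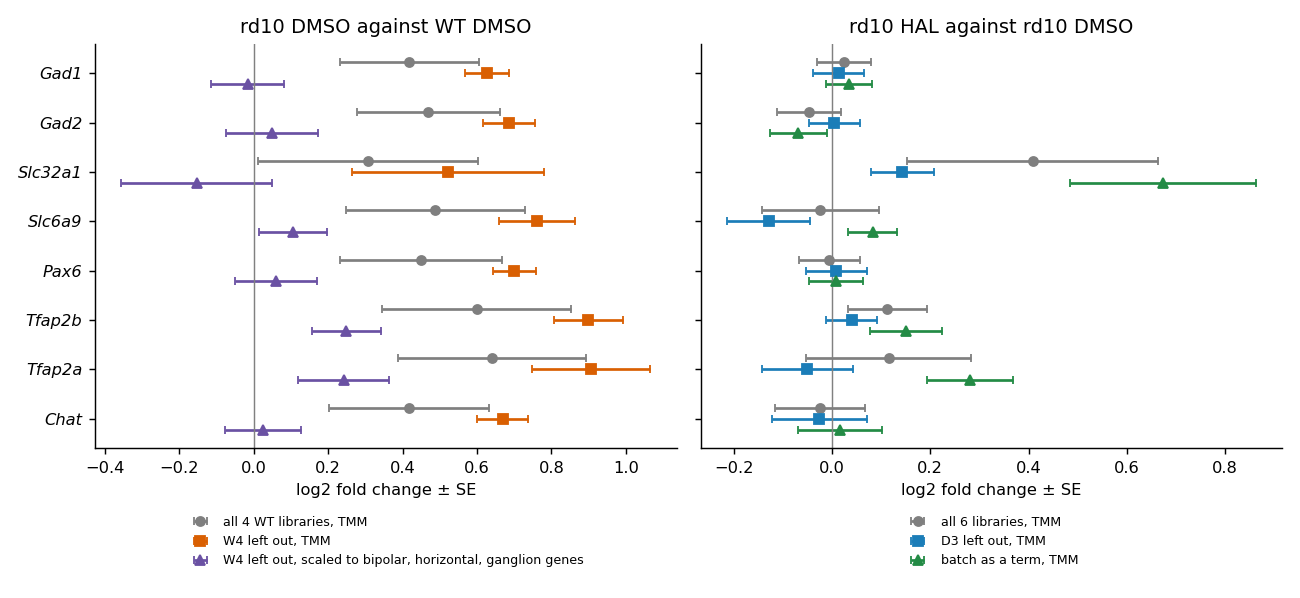
Log2 fold change with its SE (x axis) of each gene (y axis) in rd10 DMSO against WT DMSO (left) and rd10 HAL against rd10 DMSO (right), each under 3 fits named in the legend. Leaving out W4 moves all 8 values up on the left and scaling to other inner neurons brings them to between -0.15 and 0.25, and on the right Slc32a1 goes from 0.41 to 0.14 without D3.

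D3 differed from D1 and D2 with GC content. Transcripts of Slc32a1 have a GC content of 61.9%, above that of 98.9% of the genes with a value, and the difference of D3 from the mean of D1 and D2 was -1.07 on the log2 scale, lower than for all but 0.624% of genes. The 160 genes within 1 point of that GC content had a median difference of -0.56, and all genes had a median of -0.01. Slc6a9, at a GC content of 56.5%, differed by -0.36 in D3, and Gad2, at 44.1%, was 0.14 higher. Tfap2a differed by -0.61 at 50.9%, where the median of all genes between 50% and 52% was 0.01. Chat, at 54.3%, differed by -0.02.

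**Figure D4:**
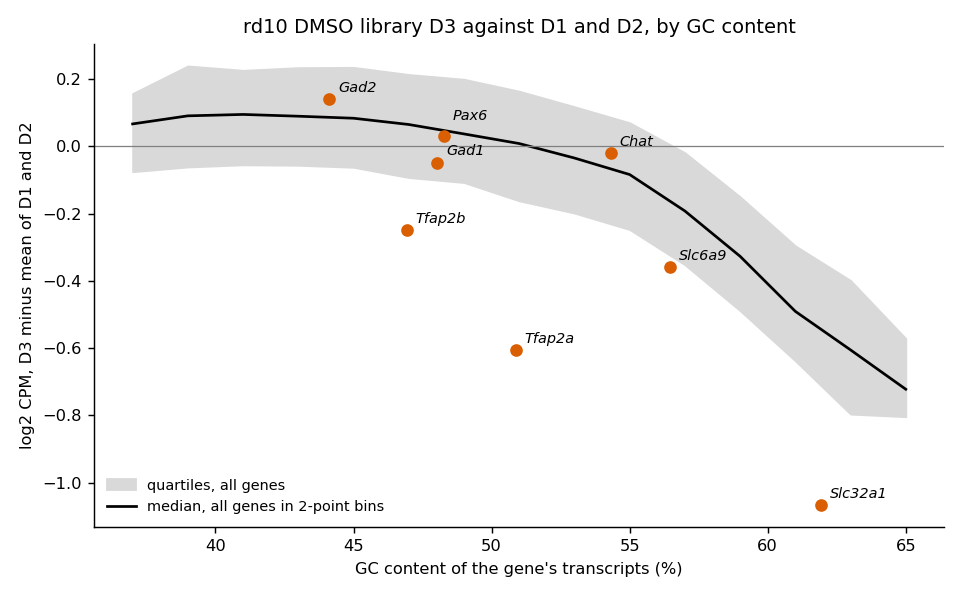
Difference in log2 CPM between D3 and the mean of D1 and D2 (y axis) against the GC content of each gene's transcripts (x axis, percent), with the median and quartiles of all genes in 2-point bins and the 8 amacrine genes as points. The median falls to -0.49 between 60% and 62% GC, and Slc32a1 lies at -1.07 and Tfap2a at -0.61.

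No gene of the wider amacrine lists passed in the halofantrine comparison either. The median of the GABA receptor list was -0.05, of glycine uptake and receptors -0.03, of starburst and cholinergic genes 0.05 and of amacrine transcription factors 0.09. The smallest p among transcription factors belonged to Tfap2c (0.27, adjusted p = 0.883, edgeR) and Prdm13 (0.28, adjusted p = 0.883), and Prdm13 had its lowest rd10 level in D3. Among cholinergic genes they belonged to Sox2 (0.47) and Slc18a3 (0.40), the vesicular acetylcholine transporter that is encoded within the Chat locus. Sox2 was at 21.7, 22.8 and 12.1 CPM in D1 to D3 and at 25.1, 26.6 and 27.4 CPM in H1 to H3, so D3 was the lowest of the rd10 libraries. Slc18a3 was at 11.8, 11.9 and 5.84 CPM in D1 to D3 and at 13.7, 14.4 and 11.6 CPM in H1 to H3, so D3 was low here too while Chat in D3 was not.

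The halofantrine libraries were also set beside WT, which they share with the first comparison. With W4, none of the 8 genes passed in edgeR and 0% of 11699 genes were called higher, with 4 of the 8 and 4050 of all genes at an unadjusted p under 0.05. DESeq2 called 3 of the 8 higher, Slc32a1, Tfap2a and Tfap2b, and 6.36% of all genes. Without W4 all 8 were higher, by 0.63 (Gad2) to 1.01 (Tfap2a) on the log2 scale, where 35.7% of all genes were called higher. Slc32a1 rose by 0.92 (SE 0.07, adjusted p = 5.70e-06) and Tfap2b by 1.00 (SE 0.07, adjusted p = 2.91e-06). With an offset for GC content Slc32a1 was at 0.50 (SE 0.04, adjusted p = 1.54e-05) without W4 and at 0.37 (SE 0.13, adjusted p = 0.145) with it, against 0.72 with W4 and no offset. All 3 halofantrine libraries lay above W1 to W3 for all 8 genes, as for 37.6% of all genes. Without W4 and scaled to bipolar, horizontal and ganglion genes, Slc32a1 (0.22), Tfap2a (0.31) and Tfap2b (0.30) remained called, where 6.87% of all genes were called higher. The other 5 lay between -0.08 and 0.02. With W4 in that scaling none of the 8 passed, and 0% of all genes were called higher.

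The rd10 libraries split by batch, a term the labels give without saying what it stands for. With treatment in the fit, Slc6a9 was lower in batch 2 by -0.30 (SE 0.05, adjusted p = 0.0228) and Tfap2a by -0.43 (SE 0.09, adjusted p = 0.0414) in edgeR's quasi-likelihood test. That is 2 of 8, against 1.55% of all genes called lower. These 2 were also the genes whose batches did not overlap. That count is near the share of 27.9% of all genes and comes from the same values, so it adds nothing to the calls. Neither call held when D1, D2, D3, H2 or H3 was left out (0.137% to 0.368% of all genes called lower), and 4 of the 8 genes were called lower without H1, where 13.3% of all genes were. Without D3, Slc6a9 was at -0.24 (adjusted p = 0.127) and Tfap2a at -0.26 (adjusted p = 0.166). Slc6a9 also missed the threshold with the offset for GC content (-0.18, adjusted p = 0.0576) and in the inner-neuron scaling (-0.15, adjusted p = 0.115), and Tfap2a did so under limma-voom (-0.40, adjusted p = 0.0543), so 1 of the 8 was called lower in each, against 1.31%, 0.701% and 1.13% of all genes. Slc32a1 gave -0.58 (SE 0.19, adjusted p = 0.111), and -0.12 without D3. All 14 rod genes were higher in batch 2, with a median of 1.23, where 3.09% of all genes were called higher, and their part in the amacrine values was not tested. Among the named genes of the other amacrine lists, Gabra2 (-0.48), Glra3 (-0.30) and Nfib (-0.41) were lower in batch 2 and Drd4, a dopamine receptor that photoreceptors use, was higher (0.98).

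Ratios between genes of one library do not depend on scaling. Gad2 to Gad1 was -2.36 ± 0.11 on the log2 scale of counts in W1 to W3 (SD, n = 3), -2.30 ± 0.11 in rd10 DMSO and -2.37 ± 0.06 in rd10 HAL. The balance of the 2 decarboxylases moved by 0.06 from W1 to W3 to rd10 DMSO (exact permutation p = 0.6, and 0.571 with W4) and by -0.07 with halofantrine (exact permutation p = 0.5). Tfap2a to Tfap2b was -2.63 ± 0.12, -2.65 ± 0.21 and -2.63 ± 0.18 in the same order, with exact permutation p from 0.8 to 1.00 over its comparisons. Chat to Th was 2.88 ± 0.44, 3.21 ± 0.41 and 2.92 ± 0.31.

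The ratio of glycine to vesicular transporter, Slc6a9 to Slc32a1, was 1.76, 1.63 and 1.92 in W1 to W3, 1.94 in W4, 1.85, 1.83 and 2.55 in D1 to D3 and 1.65, 1.49 and 1.56 in H1 to H3. The 3 halofantrine libraries lay under the 3 DMSO libraries, with a difference of -0.51. The exact permutation p was 0.1, the smallest that 3 against 3 allows, and 0.4 after adjustment over the 4 ratios. Without D3 the difference was -0.27, and D1 and D2 also lay above H1 to H3. With 3 against 3 or 3 against 4 libraries (smallest exact permutation p 0.1 and 0.0571) no ratio could have passed 0.05.

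Transcripts within a gene were read from the deposited transcript counts, with exons from the GENCODE M21 annotation (GRCm38). Slc32a1 had 1 transcript, and the leading transcript held on average 99.9% of the counts of Gad2, 95.3% of Chat and 92.7% of Th. Gad1 was split between Gad1-201, the full coding transcript, and Gad1-206, a transcript annotated as non-coding that has another first exon and shares 14 of its 16 exons with Gad1-201. The share of Gad1-201 was 72.8%, 81.9% and 67.2% in W1 to W3, 63.3% in W4, 64.6%, 64.0% and 31.5% in D1 to D3 and 77.5%, 80.0% and 74.6% in H1 to H3. D3 was the 1 library in which Gad1-206 held more counts than Gad1-201, at 63.1%. The mean was 77.4% ± 2.72 in the halofantrine and 53.3% ± 18.9 in the DMSO libraries (SD, n = 3 each), without overlap (exact permutation p = 0.1, 0.250 after adjustment over 5 genes). Without D3 the difference between halofantrine and DMSO was 13.1 points. With 3 against 3 libraries p cannot go below 0.1, and how often transcripts of other genes separate in this way was not counted. The DMSO libraries lay 20.6 points under W1 to W3 (exact permutation p = 0.1, 0.250 after adjustment) and 18.0 points under all 4 WT libraries (exact permutation p = 0.171), and 7.05 points under the 4 WT libraries without D3.

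Pax6 spread its counts over many transcripts, with none holding over 25.6% in a library. Pax6-207 held 17.6%, 13.6% and 20.9% in W1 to W3, 18.7%, 16.6% and 1.19% in D1 to D3 and 8.95%, 1.14% and 4.06% in H1 to H3. Pax6-204, which starts at another first exon and shares 10 exons with it, held 10.3%, 13.4% and 6.55%, then 8.30%, 9.28% and 23.3%, and then 16.4%, 25.6% and 21.2%. The 3 batch 2 libraries were at the low end for the first and at the high end for the second, while the gene total differed between batches by -0.05 (SE 0.06, adjusted p = 0.603, edgeR). These 2 transcripts were singled out after their values were seen.

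**Figure D5:**
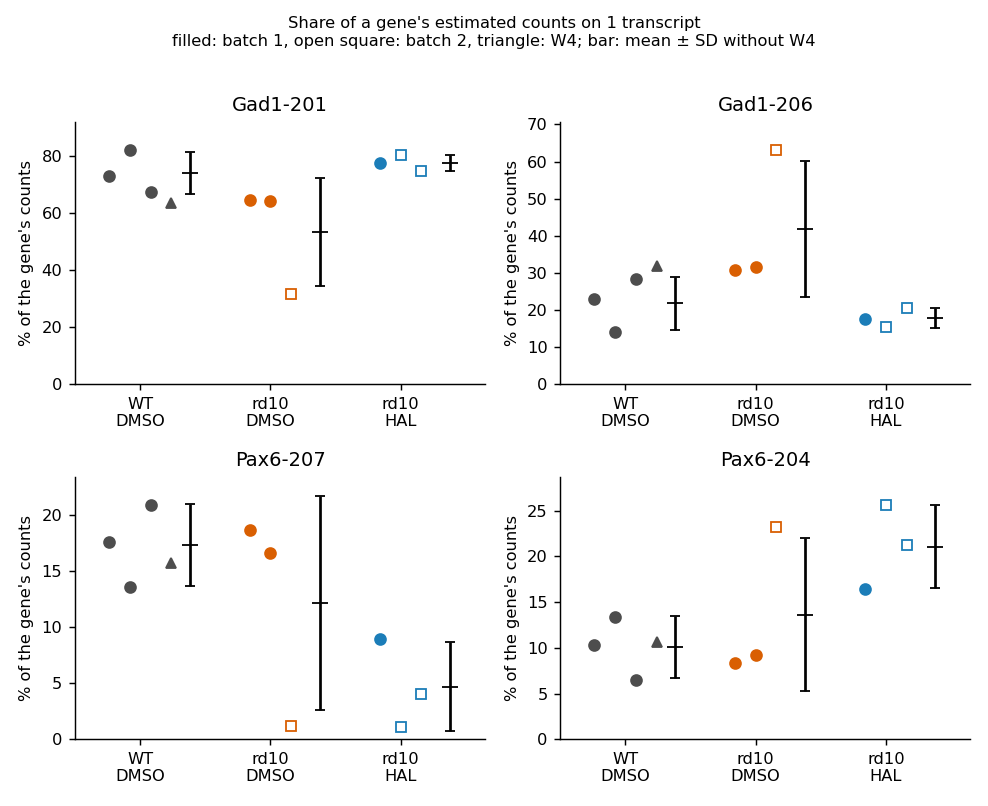
Share of a gene's estimated counts (y axis, percent) on Gad1-201, Gad1-206, Pax6-207 and Pax6-204 in each library of the 3 groups (x axis), with the mean ± SD of each group without W4. D3 has 31.5% on Gad1-201, and the 3 batch 2 libraries have 1.14% to 4.06% on Pax6-207.

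Pax6 also has an alternative exon, called 5a, that adds 14 codons to the paired domain, one of the parts of the protein that bind DNA. It is 42 bases long at chr2:105684751-105684792 (GRCm38, plus strand), and it is printed here because its use was measured in each library. Capitals mark the exon, and the 15 bases on each side belong to the neighbouring exons of transcript Pax6-206.
Pax6 exon 5a: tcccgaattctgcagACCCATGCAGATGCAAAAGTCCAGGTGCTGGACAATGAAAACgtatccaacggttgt
Of the counts on transcripts that either hold or skip this exon, 43.3%, 46.8% and 46.5% were on transcripts that hold it in W1 to W3 and 46.1% in W4. The share was 44.3%, 44.0% and 50.3% in D1 to D3 and 45.4%, 49.1% and 48.0% in H1 to H3. It stayed between 43.3% and 50.3% in all 10 libraries, and the groups overlapped. The exact permutation p was 0.8 for rd10 DMSO against W1 to W3 and with W4, and 0.7 for halofantrine against DMSO, where no p under 0.1 was possible.

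The share of Slc6a9-202, the main transcript of the glycine transporter, was 60.2%, 61.9% and 60.4% in W1 to W3, 67.6% in W4, 68.7%, 67.4% and 68.6% in D1 to D3 and 69.0%, 67.7% and 63.0% in H1 to H3. All rd10 libraries lay above W1 to W3, by 7.41 points for DMSO and 5.72 points for halofantrine (exact permutation p = 0.1 for each, the smallest allowed, and 0.250 and 0.5 after adjustment). With W4 counted as WT, the p for rd10 DMSO was 0.114. Tfap2b-201 held 88.3% to 94.8% of its gene's counts, and Tfap2a was split between Tfap2a-201 (36.4% to 64.2%) and Tfap2a-202 (28.0% to 51.5%), which start at different first exons. The share of Tfap2b-201 was 88.5% ± 0.288 in the halofantrine libraries, all under the DMSO libraries at 91.8% ± 2.71 (SD, n = 3 each, exact permutation p = 0.1, the smallest allowed, and 0.250 after adjustment). The difference was -3.20 points, and -1.66 points without D3, which held the highest share. How often transcripts of other genes separate between groups in these ways was not counted, so no shift particular to these genes can be read from them. Tfap2a-201 overlapped between all groups.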

How the data were processed

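RNA of mouse retinas was sequenced in 10 libraries. The authors pseudoaligned the reads with kallisto to Ensembl transcripts (build GRCm39 per the labels) and deposited estimated counts per transcript and per gene. They left out genes of low counts by a rule not given in the sources used here. A deposited scaled signal, named CPM by the authors, served in 1 alternative. A deposited table of the authors' own comparison for halofantrine was not used.

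Estimated counts were rounded (51.4% were exactly whole) and tested with edgeR 4.0.16 (filterByExpr, TMM, quasi-likelihood test, Benjamini-Hochberg adjustment over all genes, threshold 0.05) in R 4.3.3, with only the groups compared in each fit. Of 11702 genes, 11492 matched a symbol. Ratios used a prior count of 0.5. Shares and ratios were tested by exact two-sided permutation (scipy 1.17.1). Alternatives were DESeq2 1.42.0, limma 3.58.1, other scalings and filters, batch, a GC offset and libraries left out. Tests were checked on simulated data. All 9 genes are named, and from each other list at most 3 called genes per direction, or else the 2 with the smallest p. The genes and lists were chosen with earlier results of these data known. Replicate numbers follow accession order and pair nothing. Some results of the wider lists are not reported here.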

Additional observations from a re-analysis of the deposited data

Results flagged for a closer look

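The library labelled W4 stood apart from the other WT libraries for 7 of the 8 genes in the gene table. The gap from W4 to the nearest other WT library, divided by the range of the 4 WT libraries, was 0.936 for Gad1, 0.844 for Gad2, 0.953 for Slc6a9 and 0.932 for Tfap2a. It was 0.840 for Tfap2b, 0.958 for Pax6 and 0.916 for Chat, each above Dixon's critical value for 4 samples. These 7 were among 19 results tested this way, and chance alone gives such a gap in about 1 of 20 groups tested. All 7 come from the same library, already seen to differ in Pde6b and the rod genes, so they are not independent of each other. W4 lay above W1 to W3 in all 7 cases. Over all 11702 genes W4 was as far from W1 to W3 for 28.2%, far above them for 16.7% and far below them for 11.5%.

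The fitted halofantrine effect on Slc32a1 was higher in batch 2 than in batch 1 by 0.94 on the log2 scale (SE 0.10, adjusted p = 0.0333, edgeR's quasi-likelihood test of the interaction over all genes). In batch 1 this compares H1 with D1 and D2, and in batch 2 it compares H2 and H3 with D3, so each batch has a group of 1 library, which is assumed to vary like the others. The value thus rests on D3, the library that also differed from D1 and D2 with GC content, and could not be fitted without it. The test called 49 of 11701 genes, and Slc32a1 was the 1 gene of the 8 among them.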

How the results depend on the processing

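No paired analysis was possible because the replicate numbers follow accession order and each library is of another mouse. In rd10 DMSO against WT the number of the 8 genes called ranged from 0 to 7 when each library was left out in turn, the 7 without W4. With W4 out it was 7 under TMM without rod and cone genes, limma-voom and the GC offset, 8 under library size, DESeq2 and batch 1 alone, and 1 under scaling to bipolar, horizontal and ganglion genes. The share of all genes called higher was 46.2% under library size, 36.5% for batch 1 alone, 6.05% in the inner-neuron scaling and 32% to 33% in the others. That scaling turned Gad1 to -0.00362 and Slc32a1 to -0.144 with W4, and to -0.0168 and -0.153 without it. In rd10 HAL against WT the count was 3 under DESeq2 with W4 and ranged from 0 to 8 over libraries left out. Without W4 it was 8 under library size, TMM without rod and cone genes, DESeq2, limma-voom, the GC offset and batch 1 alone, and 3 under the scaling to other inner neurons, with 51% of all genes called higher under library size, 6.87% in that scaling and 33.5% to 35.9% in the others. There Gad1 turned to -0.0525, Gad2 to -0.0702, Slc6a9 to -0.0129, Pax6 to -0.0395 and Chat to -0.0885 with W4, and Gad1 to -0.0654, Gad2 to -0.0766, Pax6 to -0.0222 and Chat to -0.0717 without it. In rd10 HAL against rd10 DMSO the count was 0 throughout, from 0 to 0 over libraries left out. Values near 0 changed sign: Slc6a9 to 0.0829, Pax6 to 0.00902 and Chat to 0.0167 with batch as a term, Gad1 to -0.0487 in the inner-neuron scaling and Pax6 to 0.0146 with the GC offset. Over libraries left out, Gad2 ranged from -0.0735 to 0.00498, Slc6a9 from -0.129 to 0.0524, Tfap2a from -0.0501 to 0.229, Pax6 from -0.0476 to 0.0311 and Chat from -0.102 to 0.0485. Between batches 1 gene was called under limma-voom, the inner-neuron scaling and the GC offset each, lower in batch 2 (1.13%, 0.701% and 1.31% of all genes called lower), and 0 to 4 over libraries left out (0.137% to 13.3% of all genes lower). In that scaling Gad1 turned to 0.124, Tfap2b to 0.0548, Pax6 to 0.108 and Chat to 0.0277, and with the GC offset Gad2 to -0.00172. Over libraries left out Gad2 ranged from -0.00557 to 0.14, Tfap2b from -0.249 to 0.0507 and Pax6 from -0.121 to 0.0293. The cause of these changes was not tested. The inner-neuron scaling, the GC offset, the Pax6 exon share and the pairs of choices with W4 out were chosen after seeing the data. Th had 36 to 156 counts a library.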

Other observations

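A pair of genes of the wider lists varied within both DMSO groups. Slc6a13, a GABA transporter also used outside neurons, measured 2.51, 1.81 and 28.5 CPM in W1 to W3, 44.5 CPM in W4 and 39.5, 3.14 and 33.0 CPM in D1 to D3. Penk, the enkephalin precursor, measured 7.49, 5.14 and 56.4 CPM in W1 to W3, 62.2 CPM in W4 and 74.7, 6.92 and 66.3 CPM in D1 to D3. The summed level of 8 pigment epithelium and ciliary body genes was 80.1, 64.2 and 354 CPM in W1 to W3, 409 CPM in W4 and 726, 214 and 611 CPM in D1 to D3, high in the same DMSO libraries W3, W4, D1 and D3. In H1 to H3 that sum was 292, 172 and 207 CPM, around its D2 value. Slc6a13 (12.9, 12.1 and 13.1 CPM) and Penk (30.1, 32.7 and 39.3 CPM) lay above their D2 values there. The part of that sum in the 2 genes was not tested.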
